A study of Arabidopsis thaliana with 6 samples.

Results

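LTP3, LTP4 and related lipid transfer proteins of Arabidopsis thaliana were followed through an RNA sequencing comparison of the genotype epic2 with wild type plants. The 7 genes LTP1, LTP2, LTP3, LTP4, LTP5, LTP6 and LTP12 were taken by gene name or locus code from a deposited table of 26765 rows, of which the authors tested 18916. All 7 have a row of their own, and LTP1 (AT2G38540) is listed there under its other symbol LP1. The set was chosen by the FPKM values and calls of this same comparison, in which LTP4 and LTP3 differ strongly between the groups. Levels and changes of the 7 genes are therefore given as a description, and the authors' calls for them are repeated without being read as a test. Both groups are of the Col-0 background and were grown with 16 h of light at 24 °C until an age of 17 days, when the aerial parts of whole seedlings were taken. There were 3 samples labelled wild type and 3 labelled epic2, each called a biological replicate. The gene altered in the mutant was not known here, so its own level was not examined. In the table the groups are named silex and epic2. The name silex appears in none of the labels and was taken as the wild type because only 2 groups are labelled, so each direction below is that of epic2 relative to silex.

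Non-specific lipid transfer proteins are small, basic, secreted proteins in which conserved disulphide bridges hold a hydrophobic cavity that can take up fatty acids and other lipids. They are abundant in the cell wall of the shoot epidermis, where they have been linked to the building of the cuticle, and the family is also classed among the pathogenesis-related proteins as PR-14. Genes of the family often lie in tandem. LTP3 and LTP4 are known to respond to drought and abscisic acid, and LTP3 is a target of the factor MYB96.

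The unit throughout is FPKM, the fragments of a transcript scaled to its length and to the reads mapped, which can be compared between genes. The authors deposited 1 value per group, pooled over its 3 samples, so no spread between samples can be given and sequencing depth is unknown. The ± beside a log2 fold change is the standard error that the authors' test statistic implies, not a spread between samples. A row is called when it passed the authors' q of 0.05, which 18.3% of tested rows did, 9.51% higher and 8.80% lower in epic2. In whole shoots a change in the number of expressing cells and a change in the RNA of each cell cannot be told apart.

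LTP4 (AT5G59310) and LTP3 (AT5G59320) are neighbours on chromosome 5 that point away from each other. In the TAIR10.1 RefSeq annotation LTP4 lies on the minus strand and LTP3 on the plus strand, their starts are separated by 2996 bases (chr5:23925958-23928953), and no other gene is annotated between them. The authors' rows for them are chr5:23925085-23925852 and chr5:23928971-23929745. Another gene of the same superfamily, AT5G59330, follows LTP3 on the plus strand after 1497 bases. All 7 LTP genes have 2 exons and 1 intron. In LTP1 to LTP5 the intron splits off the last 10 bases of the coding sequence, against 22 in LTP6 and 19 in LTP12.

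The 2 genes are close copies, so whether a read of 50 bases can be assigned to one of them bears on both values. Their coding sequences were identical at 84.5% of aligned positions, the highest identity among the 21 pairs of the 7 genes. The next was 82.4% for LTP1 and LTP2, and the lowest identity among all 28 pairs with AT5G59330 included was 40.9%. The longest run shared without a mismatch by the LTP3 and LTP4 transcripts was 44 bases, in the coding part of the first exon. It is shown here because it is shorter than a read. Capitals mark the shared run, and 15 bases on each side are in lower case, from chr5:23929294-23929367 (plus strand) for LTP3 and chr5:23925465-23925538 (minus strand) for LTP4, TAIR10.1.
LTP3: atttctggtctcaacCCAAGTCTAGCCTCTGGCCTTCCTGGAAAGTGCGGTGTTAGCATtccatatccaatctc
LTP4: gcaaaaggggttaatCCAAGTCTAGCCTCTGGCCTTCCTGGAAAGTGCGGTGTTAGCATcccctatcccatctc
None of the 720 windows of 50 bases in the LTP3 transcript, and none of the 781 in that of LTP4, occurred exactly in the transcript of another gene, on either strand. The same held for LTP1, LTP2, LTP5, LTP6, LTP12 and AT5G59330. With up to 2 mismatches allowed, 5 windows of each gene matched the other, 0.694% of LTP3 and 0.640% of LTP4, while 22 windows were alike between LTP1 and LTP2, 2.81% and 2.07% of each. These shares refer to 1 reference transcript per gene, and how the authors' programs placed such reads is not given.

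**Figure D1:**
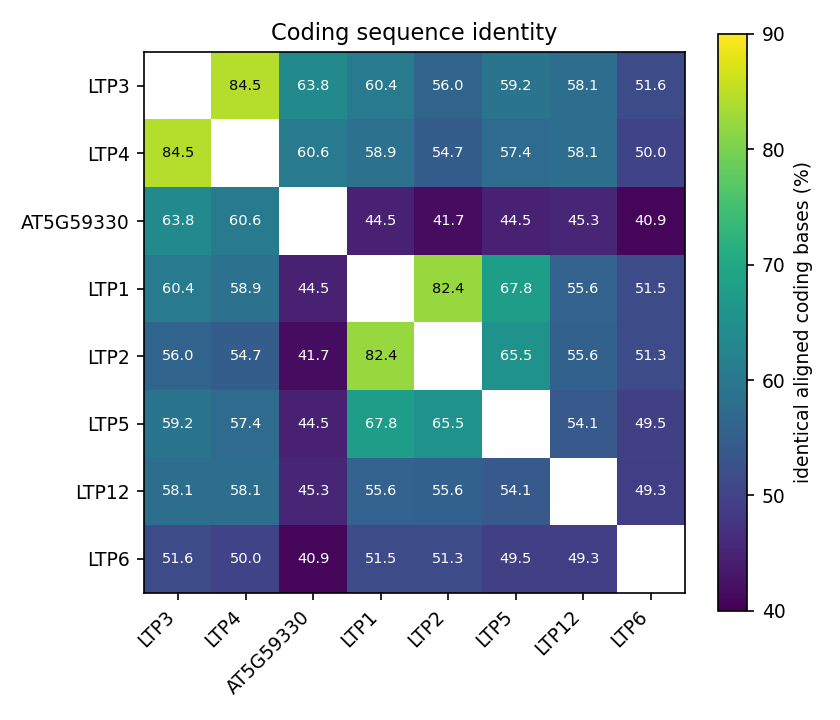
Percentage of identical aligned coding bases for each pair of the 7 LTP genes and AT5G59330. LTP3 with LTP4 (84.5%) and LTP1 with LTP2 (82.4%), the neighbouring copies, stand above all other pairs, and LTP5 is nearest to LTP1 at 67.8%.

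The 250 bases before the start of LTP4, LTP3 and AT5G59330 are shown because these 3 neighbouring copies all had a higher value in epic2. They are written in the direction of transcription from TAIR10.1: chr5:23925958-23926207 (minus strand) for LTP4, chr5:23928704-23928953 (plus) for LTP3 and chr5:23931064-23931313 (plus) for AT5G59330. Capitals mark runs of at least 10 bases that occur a second time among these 3 windows, leaving out runs made mostly of 1 base. The RefSeq start lies 105 bases upstream of the edge of the authors' row for LTP4, 17 for LTP3 and 4 for AT5G59330, so the windows are not equally placed against the starts in the table.
LTP4: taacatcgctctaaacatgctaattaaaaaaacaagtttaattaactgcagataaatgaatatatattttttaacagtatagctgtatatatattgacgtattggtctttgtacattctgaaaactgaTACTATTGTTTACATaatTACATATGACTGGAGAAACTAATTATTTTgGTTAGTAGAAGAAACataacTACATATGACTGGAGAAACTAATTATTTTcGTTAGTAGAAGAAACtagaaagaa
LTP3: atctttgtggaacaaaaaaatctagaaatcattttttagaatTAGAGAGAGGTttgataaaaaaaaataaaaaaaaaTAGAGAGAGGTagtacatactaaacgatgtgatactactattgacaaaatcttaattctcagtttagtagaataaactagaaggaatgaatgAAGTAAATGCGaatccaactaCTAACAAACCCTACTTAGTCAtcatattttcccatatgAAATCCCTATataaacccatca
AT5G59330: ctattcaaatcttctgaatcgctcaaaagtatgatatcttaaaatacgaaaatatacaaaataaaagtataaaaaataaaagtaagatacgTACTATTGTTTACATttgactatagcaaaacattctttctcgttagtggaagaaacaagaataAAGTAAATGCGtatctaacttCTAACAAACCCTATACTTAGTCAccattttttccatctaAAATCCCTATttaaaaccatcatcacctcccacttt
The LTP4 window holds a direct repeat, in which a run of 29 bases, 1 differing base and a run of 15 bases occur at positions -104 to -60 and again at -54 to -10, counted from the base next to the start. Neither run was found in any other of 27437 windows of protein-coding genes. LTP3 and AT5G59330 share runs of 11, 13, 10 and 10 bases in the same order. The 11-base and 13-base runs were found in these 2 windows only, the others in 15 and 20 windows. LTP4 and AT5G59330 share a run of 15 bases that was in no other window. LTP3 and LTP4 share no run of at least 10 bases in these windows as written.

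Short motifs known from plant promoters were searched on both strands of the same windows for all 7 genes and AT5G59330. TTGAC, the core bound by WRKY factors, had 1 match each in LTP3 (-133 to -129), LTP4 (-157 to -153), AT5G59330 and LTP1, and was in 44.9% of all windows. ACGTG, the core of elements for abscisic acid response, matched only in LTP2 and in 22.9% of all windows. CCGAC, the core of the drought and cold element, matched in LTP2 and LTP12 and in 12.0% of all windows. TAAATGNA, a looser form of the L1 box of epidermal genes, matched only in LTP4 and in 9.91% of all windows. The LTP4 match is TAAATGAA (-198 to -191). The L1 box has C or T at the base written N, so this match is not an L1 box. TATAAA matched in LTP3 at -13 to -8, in LTP12 and in AT5G59330, and in 47.4% of all windows. No 2 matches of different motifs overlapped in these windows, and a match is a description of these letters only.

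LTP4 was nearly undetected in silex and moderately expressed in epic2. Its level was 0.194 FPKM in silex against 17.3 in epic2, a ratio of 89.2, and the authors' deposited table gives 6.48 ± 1.03 as the log2 fold change. On the log2(FPKM + 1) scale, which lessens the weight of the very low silex value, the change was 3.94. In the order of all tested rows its level moved from percentile 0.412 in silex to percentile 63.4 in epic2. That order leaves out the 7849 rows not tested, among them rows listed at 0 in both groups, so the silex percentile is not a place among all genes. The wide error goes with the low silex value, whose division into reads is not known.

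LTP3 started from a higher level and reached a higher one. Silex plants had 2.93 FPKM and epic2 plants 45.6 FPKM, a ratio of 15.6, and the authors' deposited table gives 3.96 ± 0.28 as the log2 fold change. The change was 3.57 on the log2(FPKM + 1) scale. By that scale LTP4 was the first and LTP3 the third of the 3462 called rows in order of rise. Between them lay AT4G12490, another gene of the superfamily, at 3.61. Among all tested rows, called or not, LTP4 had rank 4 and LTP3 rank 8. LTP3 moved from percentile 20.4 of tested rows to percentile 83.9. In absolute terms LTP3 gained 42.7 FPKM and LTP4 17.1 FPKM, so the gene with the larger ratio had the smaller gain. The ratio of LTP3 to LTP4 was 15.1 in silex and 2.64 in epic2. Taken as a sum, which depends less on how reads were divided between the copies, LTP3 with LTP4 went from 3.13 to 62.9 FPKM, a ratio of 20.1.

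**Figure D2:**
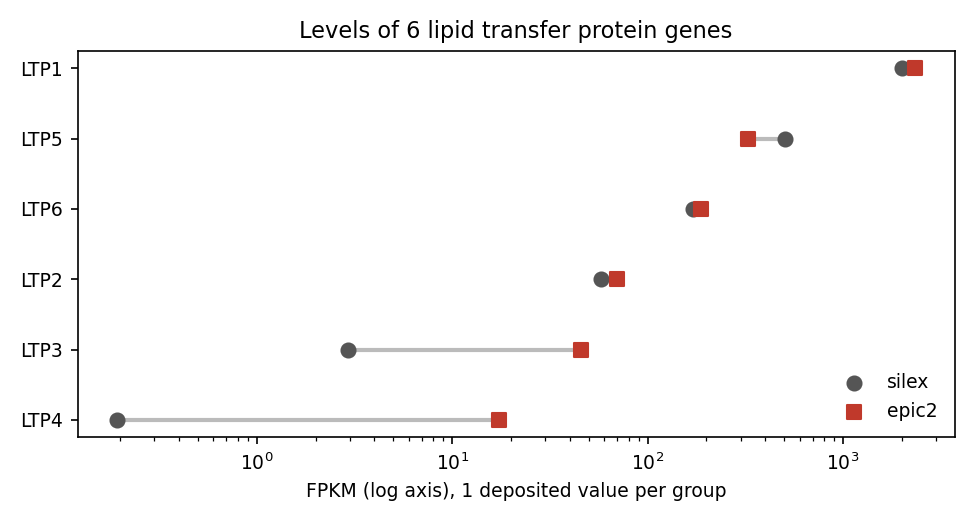
FPKM of 6 LTP genes on a log axis, with circles for silex and squares for epic2, 1 deposited value per group. LTP4 (0.194 to 17.3) and LTP3 (2.93 to 45.6) are far apart between the groups, LTP5 is lower in epic2, and LTP12, listed at 0 in both groups, cannot be drawn on this axis.

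LTP5 (AT3G51600, chr3:19138394-19139252) went the other way. Silex plants had 504.2 FPKM and epic2 plants 327.1 FPKM, and the row was called lower at a log2 fold change of -0.62 ± 0.09 in the authors' deposited table. LTP5 fell by 177 FPKM, more than the joint gain of 59.8 FPKM of LTP3 and LTP4, although its ratio was much closer to 1. It remained among the most abundant transcripts, ranked 214 of the tested rows in silex and 428 in epic2. LTP12 (AT3G51590, chr3:19135665-19136675), its neighbour 1662 bases away on the same strand and known from the anther tapetum, was listed at 0 in both groups and not tested. Of 8 tapetum and anther markers 7 had a row, none was tested, 4 were listed at 0 in both groups, and their levels summed to 0.122 FPKM in silex against 0.170 in epic2.

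LTP1, LTP2 and LTP6 did not pass the authors' q. LTP1 (chr2:16130303-16131198), a calmodulin-binding protein of the epidermal cell wall, was the most abundant of the 7 at 2007 FPKM in silex against 2328 in epic2. Its log2 fold change of 0.21 ± 0.14 has a 95% interval of -0.06 to 0.49 (q = 0.282, authors' deposited table). LTP2 (AT2G38530, chr2:16128378-16129158), which lies 890 bases before LTP1 on the same strand and has been linked to cuticle integrity, stood at 57.7 and 69.6 FPKM. Its log2 fold change of 0.27 ± 0.11 has a 95% interval of 0.06 to 0.48, not adjusted for the number of rows (q = 0.0542, authors' deposited table). LTP6 (AT3G08770, chr3:2664130-2664834) had 170.3 FPKM in silex against 187.7 in epic2. Its log2 fold change of 0.14 ± 0.09 has a 95% interval of -0.04 to 0.32 (q = 0.302, authors' deposited table). These intervals are built from the implied standard error and leave room for no change in LTP1 and LTP6, and their upper ends lie below a log2 of 1 in all 3. The ratio of LTP1 to LTP2 was 34.8 in silex and 33.5 in epic2.

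Of the 7 genes 2 were called higher (LTP3 and LTP4), 1 was called lower (LTP5), 3 did not pass and 1 was not tested. The median change of the 6 tested genes was 0.24 on the log2(FPKM + 1) scale, against 0.01 over all tested rows. The order of levels was LTP1, LTP5, LTP6, LTP2, LTP3, LTP4, LTP12 in both groups, and without values per sample it is not known which neighbours in that order differ beyond their spread. The gap between LTP2 and LTP3 narrowed from a ratio of 19.7 to a ratio of 1.52. The 7 genes together summed to 2742 FPKM in silex against 2976 in epic2, a ratio of 1.09. LTP1 made up 73.2% of that sum in silex and 78.2% in epic2, LTP5 18.4% and 11.0%, and LTP3 with LTP4 0.114% and 2.12%.

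The genes on either side of LTP4 and LTP3 were examined for changes that reach beyond the pair. AT5G59330, the further copy, had 2.30 FPKM in silex against 5.47 in epic2 and missed the threshold (log2 fold change 1.25 ± 0.51, q = 0.0583, authors' deposited table). The next row, WOX2, a WUSCHEL-related homeobox gene known from the early embryo, rose from 1.78 to 4.35 FPKM (log2 fold change 1.29 ± 0.34, q = 0.00120, authors' deposited table). On the other side AT5G59305, annotated as a CLE-like protein, had 1.91 FPKM in silex against 0.227 in epic2 and missed it too (log2 fold change -3.08 ± 1.31, q = 0.0714, authors' deposited table). UBC7, a ubiquitin-conjugating enzyme, was not called, at 31.3 and 30.8 FPKM. UXS3, a UDP-glucuronic acid decarboxylase, fell from 65.4 to 52.1 FPKM, close to the threshold (log2 fold change -0.33 ± 0.13, q = 0.0396, authors' deposited table). AT5G59350, beyond WOX2, was not called, at 13.1 and 10.9 FPKM. Around all 7 genes the 3 nearest rows on each side gave 24 distinct other rows, of which 16 were tested. Only WOX2 and UXS3 were called, 2 of the 16, against 18.3% of all tested rows.

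**Figure D3:**
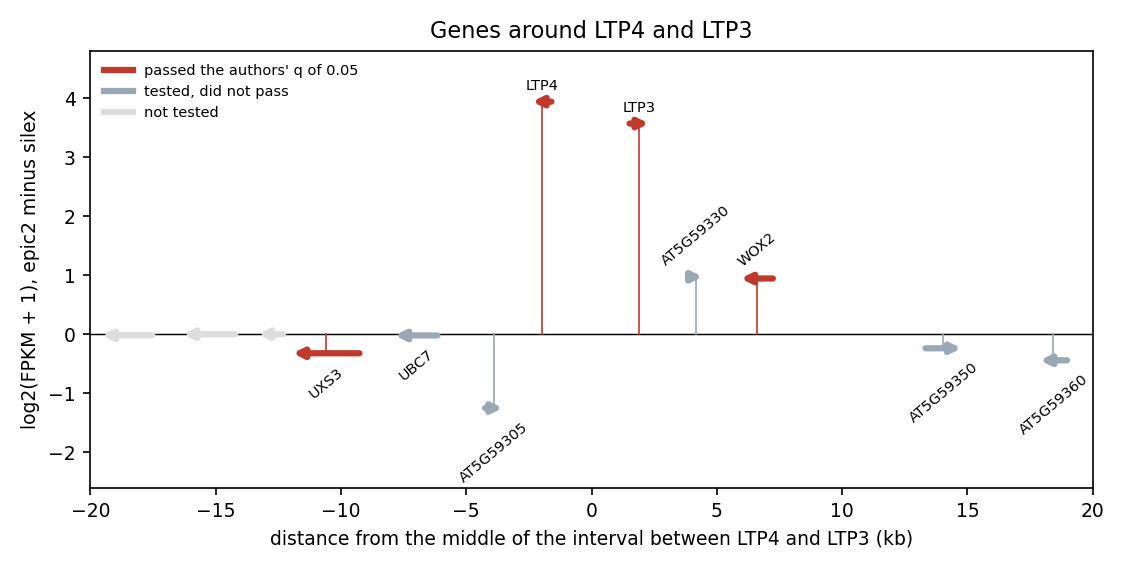
Change in log2(FPKM + 1), epic2 minus silex, of the rows within 20 kb of the middle of the interval between LTP4 and LTP3, with arrows spanning each row and pointing in the direction of transcription. LTP4 (3.94) and LTP3 (3.57) stand out, WOX2 is the other called rise (0.94), and AT5G59330 (0.97) did not pass.

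Other lipid transfer protein genes were split between rises, falls and no call. Of 21 further named genes 14 were tested, of which 4 rose, 2 fell and 8 did not pass. That is 42.9% called against 18.3% of all tested rows, and 6 of the other 7 genes were listed at 0 in both groups. The median change of the tested genes was -0.06 on the log2(FPKM + 1) scale. The 3 largest rises, AT4G12490 (1.17 to 25.6 FPKM), AT4G12500 (0.807 to 7.35 FPKM) and EARLI1 (2.97 to 14.6 FPKM), belong to 1 tandem cluster on chromosome 4, and AZI1 of that cluster, a gene of systemic immunity, was not called, at 7.24 and 7.01 FPKM. The next 2 rows along the chromosome, AT4G12510 and AT4G12520, are of the same superfamily and had lower values in epic2, 0.949 against 0.239 FPKM for AT4G12510 (q = 0.255, authors' deposited table, not called) and 1.65 against 0.330 FPKM for AT4G12520, which was called. LTPG5, of the group held to the membrane by a lipid anchor, rose from 3.40 to 6.10 FPKM. AT2G45180 fell from 2043 to 1274 FPKM and DIR1-LIKE, related to the systemic resistance protein DIR1, from 168.3 to 130.1 FPKM. LTPG1 and LTPG2, which help to deliver wax to the stem surface, stood at 277.3 and 270.1 FPKM and at 144.4 and 141.3 FPKM, and LTP7 at 223.8 and 211.7 FPKM, and none of them passed.

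The wider family was taken from the annotation, as every gene outside the 7 whose product or note names lipid transfer or a 2S albumin. It held 137 genes, among them 20 of the 21 named above, without AZI1. Chosen by these words, the set is not the superfamily of the LTP genes alone. It also takes in genes whose product names something else, such as GLTP1, ACD11, TGD1, TGD2 and MAG2, all tested and none called. Of 134 genes of the whole set with a row 58 were tested, with 9 rises, 8 falls and 41 that did not pass. That is 29.3% called against 18.3% of all tested rows, and 58 genes were listed at 0 in both groups. The median change was 0.02 on the log2(FPKM + 1) scale. Apart from the chromosome 4 genes already given, the largest called changes were AT2G37870 (1.52 to 4.44 FPKM), AT4G22513 (21.7 to 44.0 FPKM) and AT4G12520, the row beside that cluster. The call of AT4G12520 was at a q of 0.0439 in the authors' deposited table and was lost, at 0.0583, with Benjamini-Hochberg adjustment of the Cuffdiff p-values over all tested rows. The share of the family called was not tested against other genes.

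**Figure D4:**
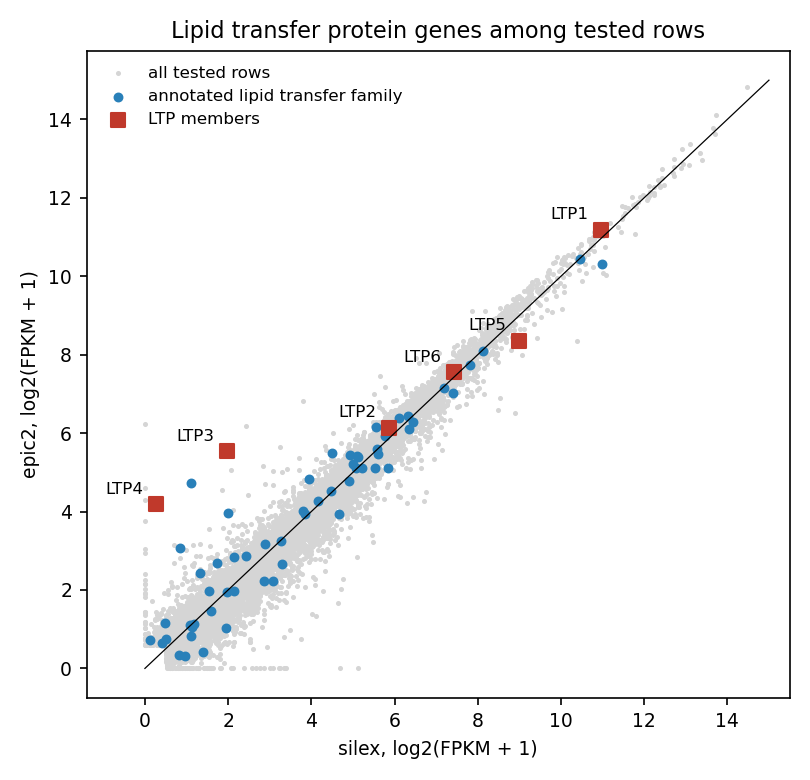
Levels of all 18916 tested rows as log2(FPKM + 1) in silex (horizontal) and epic2 (vertical), with the tested genes of the annotated family as blue circles, LTP members as red squares and a line of equal levels. LTP4 and LTP3 lie well above the line, LTP5 lies below it, and most of the family lies along it.

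Cuticle genes were counted because LTP proteins are placed in cuticle building. Of 32 genes of wax and cutin synthesis, export and control 30 were tested, of which 4 rose, 6 fell and 20 did not pass, or 33.3% called against 18.3% of all tested rows, with a median change of -0.06 on the log2(FPKM + 1) scale. MAH1, the alkane hydroxylase of stem wax, rose from 0.579 to 3.31 FPKM, CER1, needed for alkane synthesis, from 80.4 to 108.5 FPKM, and the wax ester synthase WSD1 from 3.83 to 5.53 FPKM. CER4, which makes primary alcohols, fell from 2.46 to 0.764 FPKM, and of the cutin hydroxylases CYP86A4 fell from 4.22 to 1.77 FPKM and CYP77A6 from 5.78 to 3.66 FPKM. MYB96, the activator of LTP3 named above, stood at 12.1 and 11.5 FPKM (log2 fold change -0.07 ± 0.17, q = 0.830, authors' deposited table). None of 6 epidermis markers was called, and their levels summed to 765.9 FPKM in silex against 761.8 in epic2.

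Of 22 genes of abscisic acid synthesis, signalling and response 20 were tested, and 6 rose, 4 fell and 10 did not pass, against 18.3% of all tested rows called, with a median change of 0.06 on the log2(FPKM + 1) scale. Of genes induced by abscisic acid or drought, RD22 rose from 371.1 to 519.2 FPKM, RD29B from 0.156 to 0.611 FPKM and COR15A to 97.6 FPKM. The homeobox gene HB12 fell from 19.2 to 13.1 FPKM, and the dehydrin genes ERD10 and COR47 fell to 36.4 and 35.8 FPKM. Also called higher were RAB18 (15.8 to 21.2 FPKM), ABF3 (31.6 to 44.2 FPKM) and ABF2 (19.0 to 24.6 FPKM). NCED3, a rate-limiting enzyme of abscisic acid synthesis, fell from 1.73 to 1.04 FPKM. RD29A, a common reporter of drought response, was not called, at 9.66 and 8.68 FPKM.

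**Figure D5:**
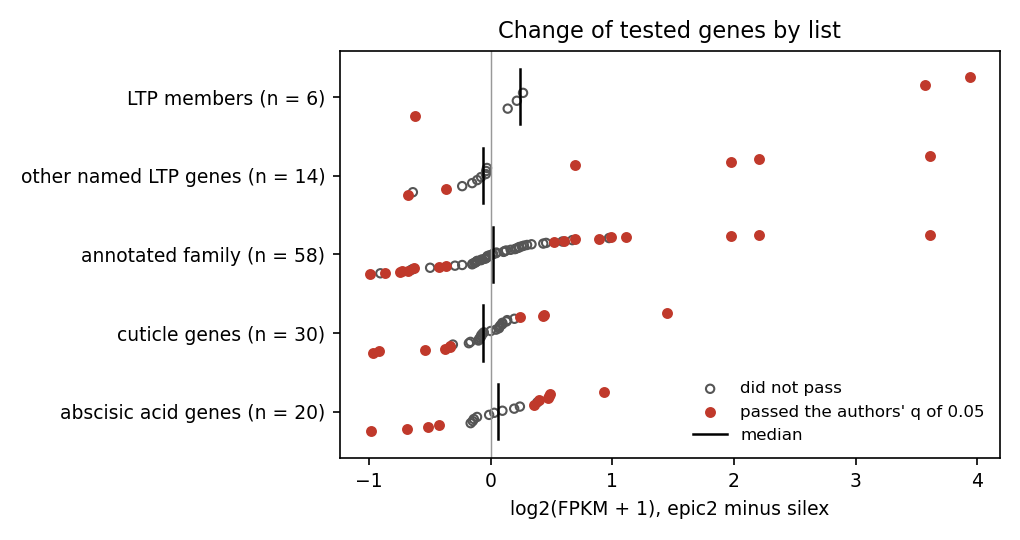
Change in log2(FPKM + 1), epic2 minus silex, of each tested gene in 5 lists, with filled points for genes past the authors' q of 0.05, open points for the others and a bar at the median. LTP3, LTP4 and AT4G12490, which is drawn in 2 lists, lie beyond 3.5. The medians of all lists lie between -0.06 and 0.24, and calls in every list go both ways.

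Markers of other tissues were read beside these values. Of 6 root markers 4 were tested, and CASP1, of the root endodermis, rose from 0.252 to 1.52 FPKM, FRO2, an iron reductase, rose from 0.857 to 1.74 FPKM, and PYK10, a beta-glucosidase of roots and young shoots, fell from 130.9 to 51.8 FPKM. SCR, a factor of the endodermis that leaves also express, was at 18.6 and 21.5 FPKM and did not pass. The 5 with a row summed to 150.7 FPKM in silex against 76.6 in epic2, a drop that PYK10 alone accounts for, since the other 4 summed to 19.8 and 24.8 FPKM. The part of these genes in the rise of LTP3 and LTP4 was not tested. No seed marker of 6 was tested, 3 were listed at 0 in both groups, and the sum was 0.128 FPKM in silex against 0.182 in epic2. Of 6 flower markers 5 had a row, and none of the 3 tested was called. Of 6 leaf markers 5 had a row and none of the 3 tested was called, with LHCB2.1 at 4813 FPKM in silex against 4486 in epic2, RBCS2B at 8761 and 10689 FPKM and GLDP1 at 1056 and 1263 FPKM. The other 2 carry the status HIDATA, by which Cuffdiff marks a locus with too many fragments to process and which 4 rows of the table have. RBCS1A is listed at 0 in both groups, and CAB1 at 0 in silex and 15806 FPKM in epic2, so these values were not read as levels.

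The genes whose levels were most like those of LTP3 and LTP4 were found by distance over the 2 groups' log2(FPKM + 1) values, which rests on 2 values per gene. Nearest to LTP3 were CSLA01, of the cellulose synthase-like family, at 3.21 and 32.3 FPKM (distance 0.50), AT5G62210, annotated as an embryo-specific protein, at 6.19 and 34.6 FPKM (0.95), and AT2G32550, annotated as Rcd1-like, at 2.60 and 22.5 FPKM (0.99). Nearest to LTP4 were AT3G04854, listed at 0 in silex and at 23.2 FPKM in epic2 (distance 0.47), AT1G21738, listed at 0 in silex and at 12.5 FPKM in epic2 (0.50), and AT4G12490 (1.01). The first 2 of these, both uncharacterised, did not pass (q = 0.288 and q = 0.499, authors' deposited table).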

How the data were processed

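TruSeq version 2 libraries of 6 total RNA samples were read from 1 end over 50 bases, per the labels' protocols. The submitters' processing notes list TopHat, Cufflinks, Cuffdiff and TAIR10, without settings. The authors deposited 1 table with pooled FPKM values, 1 per group, and per the file headers their log2 fold change, test statistic (a score), p-value and q-value. Library scaling, strand and the modelling of replicate spread were not known here, and neither was whether plants grew separately, so the p-values may reflect technical spread. Depth is unknown.

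The implied standard error is the fold change over the statistic, since deposited p-values were within 0.001 of a normal p in all 18832 tested rows with both values above 0. Rows were joined to TAIR10.1 RefSeq, which keeps TAIR10 nuclear coordinates, by name and position (24982 matched, 561 single names unmatched, 1222 with several names or none). The row with the higher mean was used where a gene had several. Sequences came from the same reference, with the longest coding transcript of each gene, aligned with Biopython 1.88 (Python 3.11.15). Tables used pandas 2.3.3 and numpy 2.4.6, and figures used matplotlib 3.10.9. The adjustment step was checked against statsmodels on simulated data, with normal p-values from scipy 1.17.1.

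The members and lists were chosen with earlier results of these data known. Named were the members, up to 6 called genes per list by size of change on the log2(FPKM + 1) scale, the 3 nearest rows on each side of a member (some given as counts only), and the 3 tested genes nearest in level to LTP3 and to LTP4. AZI1, LTPG1, LTPG2, LTP7, MYB96, NCED3, RD29A, RAB18, ABF2, ABF3, AT4G12510 and the markers named were picked after their values were seen. Alternatives were other q thresholds, Benjamini-Hochberg adjustment over tested rows, filters on level or fold, centring, another pseudocount, sums of copies and other window rules.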

Additional observations from a re-analysis of the deposited data

How the results depend on the processing

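LTP3 and LTP4 were called higher under all 6 alternatives run on the members, and LTP5 was called lower under all but the 2-fold minimum, which it does not reach. The members were chosen by calls in these same values, so this gives no independent support. LTP4, at 0.194 FPKM in silex and 17.3 in epic2, passed the filter on a mean of 1 FPKM only through epic2. A q of 0.10 can only add calls, and there LTP2 also passed, which gives 4 called members. With Benjamini-Hochberg adjustment over all tested rows AT4G12520 and AT3G53980 were no longer called, and the wider family had 15 calls. With a minimum of 2-fold on the log2(FPKM + 1) scale, 3 of the other named genes, 4 of the wider family, 1 cuticle gene and 0 abscisic acid genes were called, all of them higher, where 6, 17, 10 and 10 passed the authors' q without it. That 1 direction belongs to the scale with 1 FPKM added. By the deposited log2 fold change, called falls beyond 2-fold included AT4G12520 (-2.32), CER4 (-1.69), CYP86A4 (-1.26) and COR47 (-1.01). The called rise of the abscisic acid gene RD29B (1.97) was also beyond 2-fold. The change of LTP4 was 5.89 with a pseudocount of 0.1 FPKM against 3.94 with 1 FPKM, that of LTP3 3.91 against 3.57, and the other 4 tested members moved by less than 0.01. The sum of LTP3 and LTP4 changed by 3.95 on that scale. With windows of 25 bases, 5.91% of LTP3 and 4.22% of LTP4 occurred in another transcript, LTP3's in LTP4 and AT5G59330. No paired analysis was possible because the table holds 1 pooled value per group, and for the same reason no replicate could be left out. Depth is unknown, so no counting interval could be given for LTP4 in silex.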

Other observations

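Among the 16 rows past the authors' q and at least 8-fold higher in epic2, 2 were lipid transfer genes other than LTP3 and LTP4, namely AT4G12490 and AT4G12500, and 0 of the 14 rows at least 8-fold lower belonged to the family. The 16 rows include LTP3 and LTP4, which are left out of the count of 2 because they were chosen for their rise. The limit of 8-fold was set after the values were seen, and no test was made. The annotated family outside the LTP members had 58 genes among the 18916 tested rows, so a count of 0 among 14 rows says little.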
